A study of Mus musculus with 8 samples.

Results

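The enzymes of glycolysis, the pentose phosphate pathway, pyruvate entry into mitochondria and the citrate cycle were followed in the mammary epithelium of pregnant mice through 42 genes. They were chosen by name from the 55933 genes of the deposited expression table, and all 42 have a value there. Where 2 entries of the table share a name, which among these genes is the case for Aldoa, the entry with the higher mean was used. The libraries, each from a different female at day 14.5 of pregnancy, come from 4 controls and 4 mice with a conditional knockout of Bmpr1a (cKO). The cKO mice were K14-rtTA;teto-Cre;Bmpr1a fl/fl animals on a C57BL/6 background that received doxycycline in the drinking water, and their littermates, called WT in the sample labels, were the controls. Litter membership is not given. The K14 promoter places the deletion in myoepithelial cells, whereas the cells sequenced were the whole epithelial preparation released by collagenase and hyaluronidase, in which luminal cells are included. Fat tissue was taken off in this digestion, and red blood cells were lysed. Values are FPKM, fragments per kilobase of gene length, in which the authors' library sizes follow median-of-ratios size factors and not the totals of reads. Between 16123108 and 19896988 reads lay on genes in a library (exact permutation test between the groups, two-sided, p = 0.6).

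Bmpr1a, the targeted gene, had an FPKM of 10.6, 11.7, 8.74 and 9.52 in control replicates 1 to 4 and of 12, 12, 10.2 and 10.4 in cKO replicates 1 to 4. The groups overlapped and the level was not lower in the libraries labelled cKO (exact permutation test, two-sided, p = 0.257). Both epithelial layers were represented, with summed FPKM between 4582 and 6033 for 6 luminal markers and between 1508 and 2186 for 8 myoepithelial markers.

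Glycolysis splits glucose into pyruvate in the cytosol, and the pentose phosphate pathway branches from it to give NADPH and ribose. Pyruvate is then reduced to lactate or enters mitochondria, where pyruvate dehydrogenase turns it into acetyl-CoA for the citrate cycle, and pyruvate dehydrogenase kinases switch that enzyme off. In the secretory mammary gland glucose is also the precursor of lactose, and citrate and NADPH feed the synthesis of milk fat.

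None of the 42 genes passed the adjusted test, and those with the lower p before adjustment were spread over all 4 roles. The test was a linear model (limma) of log2(FPKM + 1), run on the 15143 genes whose FPKM averaged 0.5 or more. Its p was adjusted for the number of genes by the Benjamini-Hochberg method. Log2 fold changes are given on the same scale, and because of the added 1 they come out too small where FPKM is low. All 42 genes passed this filter. With limma, 0 of the 42 had an adjusted p under 0.05, where 135 of all genes tested did, which is 0.892%. At an unadjusted p under 0.05 there were 10 of 42, or 23.8%, beside 16.4% of all genes tested. They were 3 of 14 glycolytic genes, 1 of 7 pentose phosphate genes, 4 of 8 genes of pyruvate entry and 2 of 13 citrate cycle genes. Of the 10 genes, 9 were higher in the cKO libraries, where 8.85% of all genes were, and 1 was lower, where 7.53% were. With limma-voom on reads recovered from the FPKM, 1 of 42 had an adjusted p under 0.05, beside 1.66% of all genes, and with replicates 1 and 2 against replicates 3 and 4 as a block (the sets) there were 4 of 42, beside 2.92%. The sample labels name no such sets, so this block is not a recorded factor of the design. With no basis in the labels, the split can rest only on these same values. The p values of that fit are therefore a description and no independent support. The control and cKO values did not overlap for 5 of 42 genes, or 11.9%, beside 10.7% of all genes, and all 5 were higher in cKO, beside 6.1%. The share without overlap is thus near that of the whole table. In bulk RNA of this kind, fewer cells of a type and less RNA per cell cannot be told apart.

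The median log2 fold change of the 42 genes was 0.10, beside 0.00 over all genes tested, and 34 were above 0, as were 7603 of all 15143. Without control replicate 1 the median was 0.06, as it was without control replicate 2. The direction of small differences depends on the scaling. When each library was scaled to the same sum of FPKM (TPM), the median was 0.04 beside -0.05 over all genes, and 28 of the 42 were above 0, as were 5786 of all 15162 genes then tested. At an unadjusted p under 0.05 the split of all genes moved from 1340 higher and 1140 lower to 788 higher and 1656 lower, and that of the 42 genes from 9 and 1 to 7 and 2. In percent, the part of all such genes that was higher went from 54% to 32.2%. With the 5 milk genes left out of the sum it was 36.2% (869 higher and 1534 lower), and the 42 genes gave 10 higher and 2 lower.

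**Figure D1:**
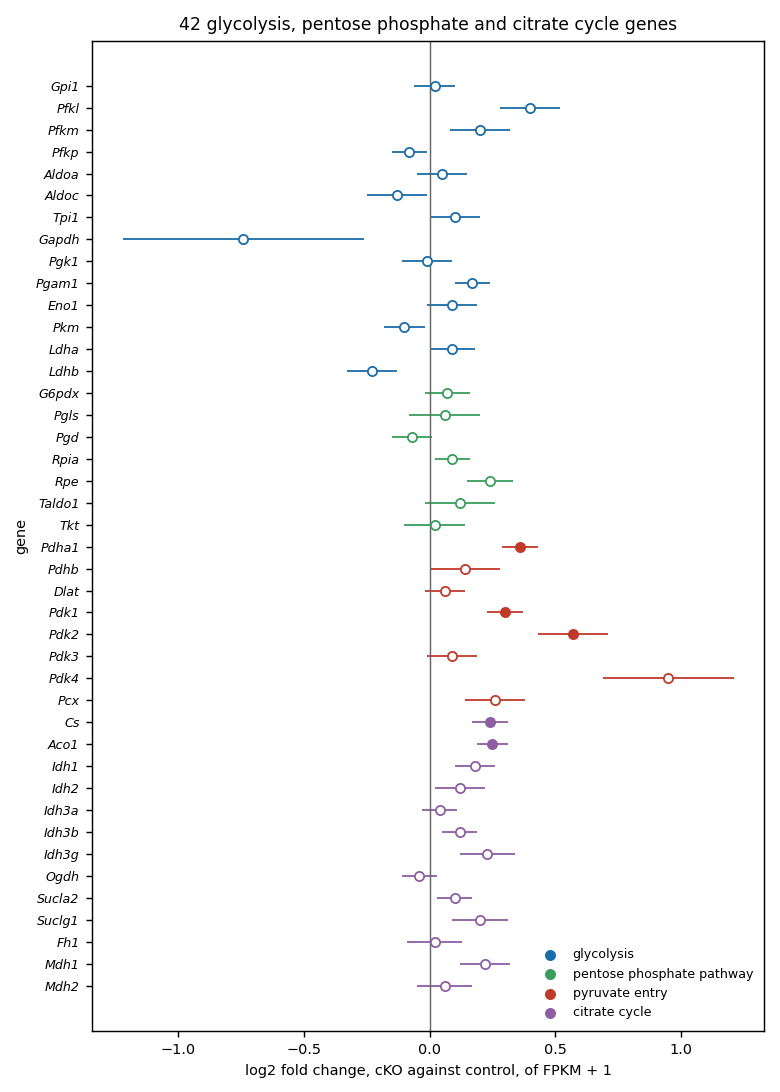
Log2 fold change (cKO against control, of FPKM + 1) with its standard error for each of the 42 genes, coloured by role; filled points are genes whose 4 control and 4 cKO values do not overlap. The filled points are Pdha1, Pdk1, Pdk2, Cs and Aco1, and Gapdh has the lowest value (-0.74) and the widest error.

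The 14 glycolytic genes held a summed FPKM of 873, 823, 1034 and 992 in control replicates 1 to 4 and of 945, 864, 978 and 972 in cKO replicates 1 to 4. The sum was lowest in replicate 2 of both groups, and the groups overlapped. Of the 14 genes 8 were above 0 in log2 fold change and 6 below (6 and 8 under TPM scaling), with a median of 0.03, and 3 had an unadjusted p under 0.05.

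Phosphofructokinase commits fructose 6-phosphate to glycolysis, and its liver-type subunit Pfkl (chromosome 10 of GRCm38, 77986947 to 78010083) had an FPKM of 12.2, 12.6, 14.8 and 15.7 in control replicates 1 to 4 and of 21, 14.6, 18.7 and 20.2 in cKO replicates 1 to 4. Of the cKO values 3 lay above every control value, and that of cKO replicate 2 lay within the control range. The log2 fold change was 0.40 ± 0.12 (SE; limma, unadjusted p = 0.0103, adjusted p = 0.161, or 0.0872 with the sets as a block). The platelet-type subunit Pfkp was at 16.9, 14.6, 16.1 and 15.0 in controls and at 15.5, 13.7, 14.9 and 14.7 in cKO, with overlap. Pfkl made up 37.5%, 41.8%, 42.5% and 45.1% of the summed FPKM of Pfkl, Pfkm and Pfkp in control replicates 1 to 4, against 51.9%, 45.9%, 49.0% and 50.2% for cKO replicates 1 to 4. The share of Pfkl was higher in each cKO library than in any control library, and Pfkp was the most abundant subunit in control replicates 1, 2 and 3 and Pfkl in control replicate 4 and all cKO libraries. Pfkm, the muscle-type subunit, lay between 3.01 and 5.40 FPKM. Exons of Senp1, with 613 to 797 reads in a library, overlap it on the opposite strand, so its low level is uncertain. No 50-base window of the principal Pfkm transcript occurs in transcripts of other genes. Pfkp is overlapped on the opposite strand by Pitrm1, with 1315 to 1675 reads beside 3033 or more on Pfkp. Of the 50-base windows of Pfkp, 17.1% also occur in transcripts of Pitrm1. The shares of the step carry that uncertainty.

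Pgam1, which moves the phosphate of 3-phosphoglycerate, had an FPKM of 44.7, 44.2, 49.9 and 50.3 in control replicates and of 55.2, 48.5, 56.3 and 53.2 in cKO replicates. Only cKO replicate 2 lay within the control range. Its log2 fold change was 0.17 ± 0.07 (SE; limma, unadjusted p = 0.0452, adjusted p = 0.292), and the unadjusted p reached 0.116 when 1 library was left out and was 0.13 under TPM scaling. Lactate dehydrogenase converts pyruvate and lactate into each other, and its B subunit Ldhb was at 31.3, 29.6, 33.0 and 34.1 in controls and at 22.8, 26.5, 27.3 and 32.3 in cKO. It was the only one of the 42 genes lower in cKO at an unadjusted p under 0.05 (log2 fold change -0.23 ± 0.10 (SE), limma, unadjusted p = 0.0454, adjusted p = 0.292). The value of cKO replicate 4 lay within the control range, and the unadjusted p reached 0.118 when 1 library was left out. Under TPM scaling the log2 fold change of Ldhb was -0.29 (limma, unadjusted p = 0.00314, adjusted p = 0.107). The A subunit Ldha was at 153, 141, 175 and 167 in controls and at 175, 155, 175 and 169 in cKO. Ldhb made up 15.9% to 17.4% of the summed Ldha and Ldhb in control libraries and 11.5% to 16.1% in cKO libraries, with overlap in cKO replicate 4.

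Of the abundant glycolytic enzymes, Aldoa, Pgk1 and Pkm had no unadjusted p under 0.05 on the deposited scale. Aldolase A (Aldoa) was at 132, 130, 165 and 163 in controls and at 158, 137, 155 and 157 in cKO, and held 78.3% to 84.7% of the summed Aldoa and Aldoc. Pgk1, which makes ATP from 1,3-bisphosphoglycerate, was at 121, 113, 130 and 138 in controls and at 122, 113, 145 and 120 in cKO. Pyruvate kinase Pkm was at 136, 127, 159 and 151 in controls and at 130, 128, 140 and 134 in cKO. In each the cKO values lay within or close to the control range, and the unadjusted p was 0.641 for Aldoa, 0.932 for Pgk1 and 0.243 for Pkm (limma; adjusted p = 0.852, 0.975 and 0.586). Under TPM scaling Pkm was lower in cKO, with a log2 fold change of -0.17 (limma, unadjusted p = 0.0273, adjusted p = 0.239). The remaining genes of the route, Gpi1, Aldoc, Tpi1 and Eno1, had log2 fold changes between -0.13 and 0.10.

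Gapdh, whose product oxidizes glyceraldehyde 3-phosphate and which served as the internal control of the study's qRT-PCR, stood apart. It lies on chromosome 6 from 125161715 to 125166467 and had an FPKM of 9.98, 4.68, 31.6 and 5.04 in control replicates 1 to 4 and of 5.82, 5.05, 5.24 and 5.19 in cKO replicates 1 to 4. Control replicate 3 was far above all other libraries, control replicate 1 came next, and the remaining 6 lay between 4.68 and 5.82. These levels are far below those of the neighbouring steps Aldoa and Pgk1. The log2 fold change of Gapdh was -0.74 ± 0.48 (SE; limma, unadjusted p = 0.161, adjusted p = 0.496), and it ranged from -1.03 to -0.19 when 1 library was left out. Without control replicate 3 it was -0.19. The level of Gapdh is uncertain, because its principal transcript of 1420 bases has 1371 windows of 50 bases, and 82.5% of them also occur in annotated transcripts of 222 other genes, most often Gm7336. How reads with several matches were counted is not given in the sources used here.

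The summed FPKM of the lymphocyte markers was also highest in control replicate 3, with control replicate 1 next. Cd79a, a part of the B cell receptor, had an FPKM of 6.06, 2.02, 14.0 and 1.32 in control replicates and between 0.692 and 1.35 in cKO replicates. The 6 lymphocyte markers summed to 12.2, 4.75, 27.0 and 3.49 in control replicates 1 to 4 and to 4.01, 2.79, 1.81 and 3.80 in cKO replicates 1 to 4, with Cd79a the most abundant in controls, Nkg7 in the cKO mean, and none at 0 in all libraries. Of the 4 that passed the filter 2 were lower in cKO at an unadjusted p under 0.05. Their part in the Gapdh values was not tested.

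The primers of the study's qRT-PCR for Gapdh are shown because the same copies bear on them; capitals mark the whole primer. Both match the Gapdh transcripts of the annotation exactly. The forward primer is also found, on either strand, in transcripts of 68 other genes, the reverse primer in those of 7, and both in a transcript of the same gene in 5.
Gapdh forward: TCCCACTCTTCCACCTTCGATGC
Gapdh reverse: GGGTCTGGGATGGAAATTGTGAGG

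**Figure D2:**
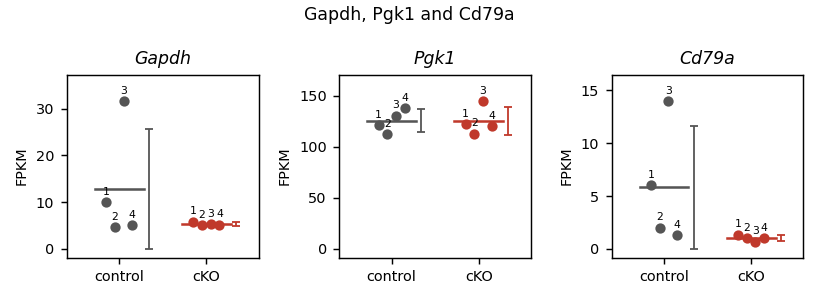
FPKM of Gapdh, Pgk1 and Cd79a in each library (points, numbered by replicate) with the group mean (line) and SD (bar, n = 4). Control replicate 3 is the highest for Gapdh (31.6) and Cd79a (14.0) and lies within the range of the other libraries for Pgk1.

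In the oxidative and non-oxidative pentose phosphate pathway the groups were close. The 7 genes summed to 302, 297, 377 and 373 FPKM in control replicates 1 to 4 and to 306, 331, 396 and 384 in cKO replicates 1 to 4. Replicates 3 and 4 were higher than replicates 1 and 2 in both groups. Of the 7 genes 6 were above 0 in log2 fold change (5 under TPM scaling), the median was 0.07, and 1 had an unadjusted p under 0.05.

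That gene was Rpe, ribulose 5-phosphate epimerase, at 6.23, 6.94, 5.69 and 7.07 FPKM in controls and 7.77, 8.55, 8.17 and 6.90 in cKO. Of the cKO values 3 lay above every control value and that of cKO replicate 4 within their range. Its log2 fold change was 0.24 ± 0.09 (SE; limma, unadjusted p = 0.0209, adjusted p = 0.213), and its unadjusted p reached 0.06 when 1 library was left out and was 0.131 under TPM scaling. Exons of Kansl1l, which has 349 to 605 reads in a library beside 297 or more on Rpe, overlap it on the opposite strand, and without stated strand-specific counting the reads cannot be told apart. Transaldolase, Taldo1, had the highest mean of the 42 genes over all libraries. Ldha was above it in replicate 1 of both groups, and Aldoa in cKO replicate 1. It was at 149, 144, 192 and 194 in controls and at 154, 168, 211 and 202 in cKO. The spread between replicates 1 and 2 and replicates 3 and 4 exceeded the difference between the groups. G6pdx, the glucose 6-phosphate dehydrogenase that opens the pathway, was at 18.9, 18.4, 23.5 and 18.7 in controls and at 19.2, 21.7, 20.5 and 21.7 in cKO. The highest value was that of control replicate 3. Exons of Ikbkg, with 404 to 662 reads beside 979 or more on G6pdx, overlap it on the opposite strand. Tkt, Pgd, Pgls and Rpia had log2 fold changes between -0.07 and 0.09.

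All 8 genes of pyruvate entry were above 0 in log2 fold change under both scalings, with a median of 0.28 (0.22 under TPM scaling), 4 had an unadjusted p under 0.05 and 3 did not overlap between the groups. Pdha1 encodes the catalytic alpha subunit of pyruvate dehydrogenase, which carries the sites that the kinases phosphorylate, and lies on the X chromosome from 160122209 to 160138413. Control replicates 1 to 4 had 41.7, 42.6, 44.1 and 45.0 FPKM, and cKO replicates 1 to 4 had 52.9, 54.3, 53.5 and 63.2 FPKM. No cKO library fell within the control range, and cKO replicate 4 was the highest. The means were 43.3 ± 1.49 and 56.0 ± 4.83 (SD, n = 4 each). The log2 fold change was 0.36 ± 0.07 (SE), with the lowest p of the 42 genes (limma, unadjusted p = 0.000702, adjusted p = 0.0592, or 0.0283 with the sets as a block; limma-voom, adjusted p = 0.0419). The other subunits overlapped between the groups. Pdhb lay between 22.4 and 31.6 in controls and between 24.9 and 35.4 in cKO, and Dlat, the acetyltransferase, between 9.64 and 11.0 and between 9.80 and 12.5.

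The 4 pyruvate dehydrogenase kinases had a summed FPKM of 36.7, 34.6, 64.7 and 49.2 in control replicates 1 to 4 and of 79.3, 65.7, 102 and 78.4 in cKO replicates 1 to 4. The sum was higher in each cKO library than in any control library, although control replicate 3 and cKO replicate 2 were close. Most of it was Pdk4, the kinase known to be induced by fasting and fatty acids, which held 68.1% to 82.3% of the sum in controls and 77.1% to 85.5% in cKO.

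Pdk4 (chromosome 6, 5483351 to 5496309) had an FPKM of 25.0, 23.9, 53.2 and 36.1 in control replicates 1 to 4 and of 63.9, 51.0, 87.3 and 60.4 in cKO replicates 1 to 4. Replicate 3 was the highest in both groups, and control replicate 3 lay above cKO replicate 2. The log2 fold change of 0.95 ± 0.26 (SE) was the largest of the 42 genes (limma, unadjusted p = 0.0048, adjusted p = 0.123, or 0.0379 with the sets as a block). Pdk2 (chromosome 11, 95026258 to 95041354), a widely expressed kinase, was at 3.92, 3.98, 4.11 and 4.68 in controls and at 6.42, 5.29, 6.19 and 9.43 in cKO. The groups did not overlap, and cKO replicate 4 was well above the others. Its log2 fold change was 0.57 ± 0.14 (SE; limma, unadjusted p = 0.00307, adjusted p = 0.101, or 0.0577 with the sets as a block). Pdk1 (chromosome 2, 71873224 to 71903858), a kinase known as a target of hypoxia-inducible factor, was at 3.30, 3.01, 3.63 and 3.60 in controls and at 4.41, 4.34, 4.06 and 4.71 in cKO. Again the groups did not overlap (log2 fold change 0.30 ± 0.07 (SE), limma, unadjusted p = 0.00301, adjusted p = 0.101, or 0.0602 with the sets as a block). Pdk3 lay between 3.72 and 4.81 in controls and between 3.83 and 5.11 in cKO, with an unadjusted p of 0.378 (limma; adjusted p = 0.697). Pyruvate carboxylase, Pcx, which makes oxaloacetate from pyruvate, was at 21.8, 20.2, 23.5 and 23.1 in controls and at 22.2, 23.7, 28.2 and 34.0 in cKO. Its groups overlapped, with cKO replicate 4 again the highest (log2 fold change 0.26 ± 0.12 (SE), limma, unadjusted p = 0.0661, adjusted p = 0.34).

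**Figure D3:**
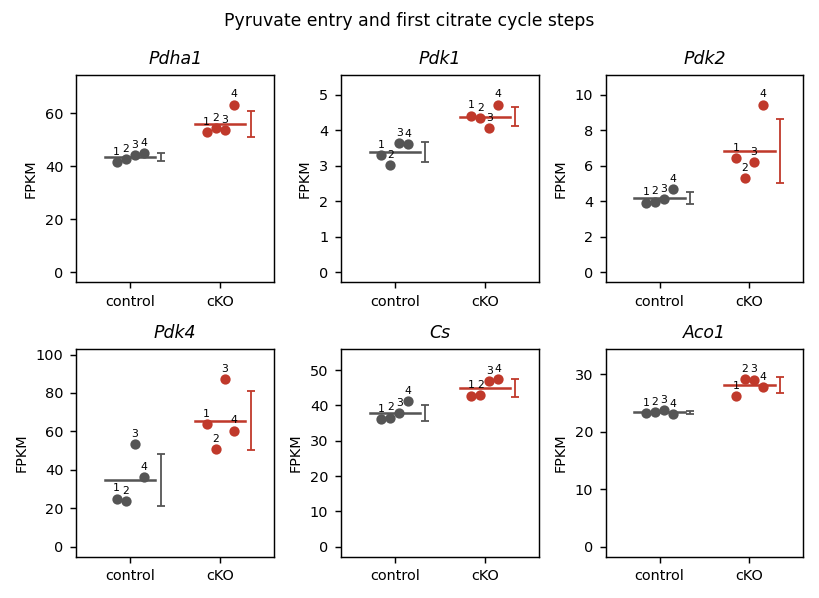
FPKM of Pdha1, Pdk1, Pdk2, Pdk4, Cs and Aco1 in each library (points, numbered by replicate) with the group mean (line) and SD (bar, n = 4). The groups do not overlap except for Pdk4, where control replicate 3 (53.2) lies above cKO replicate 2 (51.0).

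Promoter sequences of the 3 kinase genes with an unadjusted p under 0.05 are shown to compare what they hold. They are the 250 bases upstream of the start that RefSeq gives in GRCm38.p6, on the gene's strand and 5′ to 3′: chr2:71872974-71873223 on the plus strand for Pdk1, chr11:95041372-95041621 on the minus strand for Pdk2 and chr6:5496279-5496528 on the minus strand for Pdk4. The motifs searched on both strands were ACGTG, the core of the hypoxia response element, CACGTG, an E-box that contains ACGTG on both strands, and GGGCGG, a GC box. Matches are in capitals. The RefSeq start need not be the gene end of the deposited table given above, and the Pdk4 window reaches into the deposited gene while the Pdk2 window begins a few bases outside it.
Pdk1: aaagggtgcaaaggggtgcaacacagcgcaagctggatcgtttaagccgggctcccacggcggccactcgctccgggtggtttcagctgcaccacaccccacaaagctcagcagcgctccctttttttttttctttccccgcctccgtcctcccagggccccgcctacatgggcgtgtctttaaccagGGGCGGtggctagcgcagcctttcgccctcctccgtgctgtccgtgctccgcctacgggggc
Pdk2: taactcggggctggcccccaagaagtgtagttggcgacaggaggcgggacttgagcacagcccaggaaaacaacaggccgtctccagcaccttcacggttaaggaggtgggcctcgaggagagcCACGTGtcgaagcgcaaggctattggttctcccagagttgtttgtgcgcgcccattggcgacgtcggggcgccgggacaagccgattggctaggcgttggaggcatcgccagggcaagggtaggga
Pdk4: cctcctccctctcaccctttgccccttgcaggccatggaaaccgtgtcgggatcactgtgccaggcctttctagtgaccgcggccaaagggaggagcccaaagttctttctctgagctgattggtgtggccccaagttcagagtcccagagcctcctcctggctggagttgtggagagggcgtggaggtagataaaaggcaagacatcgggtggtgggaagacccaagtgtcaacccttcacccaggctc
Pdk1 held 1 GC box and no ACGTG, Pdk2 held 1 E-box, and Pdk4 held none of these letters in this window. Of the 42 genes 41 matched the promoter table. Among them 26.8% held ACGTG, 9.76% held CACGTG and 68.3% held GGGCGG, beside 16.6%, 6.02% and 32.7% of all 32851 promoters in the table. The sets are unlike. Each of the 41 genes gave the promoter nearest its deposited gene end, and all are expressed here. The promoters of the table were not limited in either way. A match is a description of these letters only.

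In the citrate cycle 12 of 13 genes were above 0 in log2 fold change (9 under TPM scaling), with a median of 0.12, and 2 had an unadjusted p under 0.05. These were Cs and Aco1. With the sets as a block, Idh1, Idh2, Idh3b, Idh3g, Suclg1 and Mdh1 also had a limma unadjusted p under 0.05, all higher in cKO. Their adjusted p was above 0.05, and 3231 of all 15143 genes had an unadjusted p under 0.05 in that fit. Citrate synthase, Cs (chromosome 10, 128337734 to 128362479), joins acetyl-CoA to oxaloacetate and had an FPKM of 36.2, 36.5, 37.9 and 41.2 in control replicates 1 to 4 and of 42.8, 42.9, 46.9 and 47.5 in cKO replicates 1 to 4. The groups did not overlap, and replicates 3 and 4 were the higher ones in each. The log2 fold change was 0.24 ± 0.07 (SE; limma, unadjusted p = 0.00605, adjusted p = 0.132, or 0.0351 with the sets as a block).

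Aco1 (chromosome 4, 40143081 to 40198338) is the cytosolic aconitase, which also acts as an iron regulatory protein when it lacks its iron-sulfur cluster. It was at 23.3, 23.4, 23.7 and 23.0 in controls and at 26.2, 29.2, 29.0 and 27.8 in cKO. The control libraries were close to each other and all cKO libraries lay above them (log2 fold change 0.25 ± 0.06 (SE), limma, unadjusted p = 0.00138, adjusted p = 0.0769, or 0.0403 with the sets as a block).

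The other citrate cycle genes overlapped between the groups. Cytosolic malate dehydrogenase, Mdh1, the most abundant of the 13, was at 66.7, 65.8, 72.8 and 80.2 in controls and at 71.3, 81.8, 91.7 and 88.2 in cKO. Of the cKO values 3 lay above every control value (log2 fold change 0.22 ± 0.10 (SE), limma, unadjusted p = 0.053, adjusted p = 0.313, or 0.0902 with the sets as a block). Its mitochondrial counterpart Mdh2 was at 51.7, 54.5, 67.9 and 67.7 in controls and at 57.3, 60.8, 69.0 and 63.2 in cKO. Of the 3 subunits of the NAD-dependent isocitrate dehydrogenase, Idh3b was the most abundant in control replicates 1 and 2 and cKO replicate 1, and Idh3g in the other 5 libraries. Idh3b held 41.4% to 43.0% of their sum in controls and 39.9% to 42.7% in cKO, and Idh3g held 39.7% to 42.5% and 40.7% to 46.6%. Exons of Nop56, with 2513 to 3417 reads in a library, overlap Idh3b, so its level is uncertain. No 50-base window of the principal Idh3b transcript occurs in transcripts of other genes. Idh1, Idh2, Idh3a, Ogdh, Sucla2, Suclg1 and Fh1 had log2 fold changes between -0.04 and 0.20.

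Levels of the 42 genes ran from a mean FPKM over all libraries of 3.88 for Pdk1 to 177 for Taldo1. For 15 of the 42 at least 10% of the 50-base windows of the principal transcript also occur in transcripts of other genes, among them Eno1 (72.2%), Pgk1 (68.0%), Pgam1 (41.5%), Pkm (34.4%), Pdhb (30.3%), Ldhb (27.0%) and Pdha1 (16.9%), and their levels carry that uncertainty. For Pdha1 the sharing was mostly with Map3k15, which overlaps it on the opposite strand and had 21 to 42 reads in a library, beside 2697 or more on Pdha1. Pdk1, Pdk2 and Aco1 had no such window, and Cs had 4.0%. X-linked genes were 5 of the 42, namely Pgk1, G6pdx, Pdha1, Pdk3 and Idh3g, and of these Pdha1 alone had an unadjusted p under 0.05.

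Beyond the 42 genes, lists of the adjoining steps were read in the same way. Of the citrate exporters, malic enzymes and shuttle genes, 13 of 15 passed the filter, 4 were higher and 2 lower in cKO at an unadjusted p under 0.05, and 1 had an adjusted p under 0.05. This was Me1, the cytosolic malic enzyme that yields NADPH, at 39.7, 40.7, 40.6 and 40.4 FPKM in controls and 52.0, 57.0, 52.8 and 53.4 in cKO. Both groups were tight and did not overlap (log2 fold change 0.41 ± 0.05 (SE), limma, adjusted p = 0.0266), but the adjusted p was above 0.05 under TPM scaling and when any 1 control library, cKO replicate 2 or cKO replicate 4 was left out. Me2, a mitochondrial malic enzyme, was at 2.34, 2.31, 2.35 and 2.36 in controls and at 1.73, 1.66, 1.76 and 1.76 in cKO. It was lower in each cKO library than in any control library (log2 fold change -0.29 ± 0.06 (SE), limma, unadjusted p = 0.00103, adjusted p = 0.0687). Others at an unadjusted p under 0.05 were Gpd1 of the glycerol phosphate shuttle (log2 fold change 0.49), Got1, the cytosolic aspartate aminotransferase (0.41), the dicarboxylate carrier Slc25a10 (0.37) and the aspartate-glutamate carrier Slc25a13 (-0.22).

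Of the other citrate cycle enzymes 7 of 8 passed the filter and 1 had an unadjusted p under 0.05: Suclg2, the GTP-forming succinyl-CoA ligase subunit, at 17.0, 17.2, 18.1 and 18.1 in controls and 20.7, 20.9, 23.6 and 23.9 in cKO, with no overlap (log2 fold change 0.32, limma, unadjusted p = 0.000963, adjusted p = 0.0665). Among glucose transporters and hexokinases 0 of the 8 tested of 11 had an unadjusted p under 0.05 with limma or limma-voom. Lactate and pyruvate transporters (5 tested of 6) and the other pyruvate dehydrogenase subunits and phosphatases (4 of 5) also had 0 with either tool.

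Of the other glycolytic isoforms and regulators, 10 of 16 were tested and with limma Gapdhs alone had an unadjusted p under 0.05 (log2 fold change 0.36; 2 genes did with limma-voom), and of the other pentose phosphate enzymes, 5 of 7 were tested and Rbks alone did (0.33). Pgm1 and Tktl2 are listed at 0 in every library. Of 10 hypoxia-inducible genes outside glycolysis 9 were tested and 2 were higher at an unadjusted p under 0.05. Bnip3, a mitochondrial mitophagy receptor, rose from 1.38, 1.53, 1.48 and 1.88 in controls to 3.73, 2.94, 3.17 and 3.54 in cKO (log2 fold change 0.76 ± 0.09 (SE), limma, adjusted p = 0.0204). The adjusted p was above 0.05 without a filter and when any 1 control library or cKO replicate 4 was left out. Ero1l, an oxidase of the endoplasmic reticulum, had a log2 fold change of 0.37 (limma, unadjusted p = 0.000849, adjusted p = 0.0624), and the other 7, among them Hif1a and Vegfa, had unadjusted p of 0.0776 or more. Of 11 transcription factors of glycolysis and lipid synthesis 9 were tested, and Mlx, a partner of the glucose-responsive factor ChREBP, alone had an unadjusted p under 0.05, with no overlap (log2 fold change 0.34).

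Milk genes and some adipocyte markers were also higher in the cKO libraries. The 5 milk genes, all higher in mean and 4 of them at an unadjusted p under 0.05, summed to 2482, 2669, 3268 and 3363 FPKM in control replicates 1 to 4 and to 4856, 5043, 5970 and 8019 in cKO replicates 1 to 4, with Csn2 the most abundant. The sum was highest in cKO replicate 4, as were Pdha1, Pdk1, Pdk2, Pcx and Cs. Pdk4, Mdh1 and Pgam1 were highest in cKO replicate 3 and Aco1 and Rpe in cKO replicate 2. Pfkl was highest in cKO replicate 1 and Ldhb in control replicate 4. The 7 adipocyte markers summed to 92.4, 78.8, 122 and 105 in controls and to 102, 138, 136 and 138 in cKO, most of it Fabp4. Of the 4 tested 3 were higher at an unadjusted p under 0.05. These were Cfd (mean 2.04 in controls and 13.2 in cKO), Cidec (0.386 and 1.56; limma, adjusted p = 0.0377) and Adipoq (0.303 and 1.25), whereas Fabp4 had means of 96.7 and 111 with overlap. The defining markers Plin1 and Lep were at most 0.371 and 0.188 in a library, Lep with no overlap and higher in cKO, and no marker of the list was at 0 in all libraries. Skeletal muscle markers summed to at most 2.06, with Mylpf highest in the control mean and Acta1 in the cKO mean. Of the 6 listed, 4 did not pass the filter, and of the 2 tested Acta1 was higher at an unadjusted p under 0.05. Acta1 had only 5 to 29 reads in a library. Its control values, at most 0.466, were all below the filter of 0.5, so it was tested only because of its cKO values. The call for Acta1 therefore says little about muscle markers as a set. The part of the milk, adipocyte and muscle genes in the differences was not tested.

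In the remaining lists the log2 fold change was below 0 for all 5 endothelial, all 5 macrophage and all 5 fibroblast markers. It was also below 0 for 4 of 5 red blood cell markers, as for the 4 lymphocyte markers tested. Of the proliferation, myoepithelial and luminal markers, 2 of 5, 3 of 8 and 3 of 6 were below 0. The 5 endothelial markers (2 lower at an unadjusted p under 0.05, among them Vwf with a limma adjusted p of 0.0268, Cdh5 the most abundant) summed to 84.9, 80.2, 81.2 and 75.2 in controls and to 80.4, 67.1, 54.9 and 67.5 in cKO. The 5 macrophage markers (2 lower, Lyz2 the most abundant) summed to 245, 178, 168 and 179 in controls and to 179, 135, 104 and 148 in cKO. The 5 fibroblast markers (0 of 5 with limma or limma-voom, Col3a1 the most abundant) summed to 397, 695, 409 and 834 in controls and to 629, 382, 270 and 472 in cKO. The 5 red blood cell markers, 2 of them lower, summed to 14.5 to 30.0, with Hba-a1 the most abundant, and the 5 proliferation markers, 0 of 5 with either tool, to 24.9 to 48.2, with Mki67 the most abundant. Of the 8 myoepithelial markers 1 was higher and 2 were lower at an unadjusted p under 0.05, with Acta2 the most abundant except in control replicate 1, where Krt14 was. The higher one was Oxtr, with means of 2.62 in controls and 5.65 in cKO and no overlap. The lower ones were Trp63, with means of 3.58 in controls and 2.45 in cKO and no overlap, and Krt14, with 753 and 577. Of the 6 luminal markers Elf5 was higher, with means of 21.3 and 38.5 and no overlap, and Krt8 was the most abundant. Their part in the levels of the 42 genes was not tested.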

How the data were processed

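FPKM per gene are the authors' deposited values, from NEBNext Ultra libraries, FastQC and alignment by Hisat2 to GRCm38. The submitters' processing notes also name StringTie 1.3.3b and featureCounts 1.5.0-p3 and the build mm9, but 99.68% of the 55394 gene identifiers found in GENCODE vM21 have its GRCm38 coordinates, which are those given. Strand-specific counting and the treatment of reads with several matches are not given in the sources used here. FPKM times gene length was a whole multiple of 1 step per library for 100% of values (tolerance 0.01 of a read), which gave the reads per gene.

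Genes whose FPKM averaged 0.5 or more were tested with limma 3.58.1 in R 4.3.3 on log2(FPKM + 1), with a trend in the empirical Bayes step and adjustment over all 15143 genes, and single values by exact permutation of 4 libraries against 4, which allows no p under 0.0286. The procedure was tested on simulated data. Percentages of all genes tested were computed with the same rules. Shares of isoforms and counts of lists carry no test. Shared sequence was counted over 50-base windows of the longest principal transcript in GENCODE vM21. Python 3.11.15, pandas 2.3.3, numpy 2.4.6, scipy 1.17.1 and matplotlib 3.10.9 were used.

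Values per library are given for members with an unadjusted p under 0.05 or no overlap, the most abundant isoform of each step and Gapdh, and genes of the adjoining lists are named at the same thresholds, up to 6 a list. A few others were added for context after their values were seen. The members and lists were chosen with earlier results of these data known. Alternatives were a pseudocount of 0.1, no filter or a mean FPKM of at least 1, TPM scaling with and without milk genes, a block by replicate number or by set (replicates 1 and 2, replicates 3 and 4), no trend, limma-voom on the recovered reads, also with that replicate block, and each library left out in turn.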

Additional observations from a re-analysis of the deposited data

Results flagged for a closer look

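Each gene's control and cKO values were checked for a library whose distance to its nearest neighbour took up most of the range of its group, for Bmpr1a, the 42 genes, Me1 and Bnip3. Chance marks about 1 in 20 groups, and 2 of 90 were marked. G6pdx was at 23.5 FPKM in control replicate 3 and between 18.4 and 18.9 in the other control libraries. Pdha1 was at 63.2 FPKM in cKO replicate 4 and between 52.9 and 54.3 in the other cKO libraries, all above the highest control value of 45.0.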

How the results depend on the processing

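The number of genes with an adjusted p under 0.05 was 135 as reported, 10 without a filter, 50 with the replicate block, 442 when blocked by set, 252 by limma-voom, 680 by limma-voom plus the replicate block, and 0 (without control replicate 4) to 78 (without cKO replicate 1) with 1 library left out. Members with an adjusted p under 0.05 were 0 as reported, 4 when blocked by set (Pdha1, Pdk4, Cs and Aco1), 1 by limma-voom (Pdha1), and 7 by limma-voom plus the replicate block. Members with an unadjusted p under 0.05 were 10 as reported, 16 with the replicate block, 19 when blocked by set and 16 by limma-voom plus the replicate block. Of all 15143 genes there were 2480, 3124, 3231 and 3389 in the same fits. The members gained when blocked by set were Pfkm, Taldo1, Pcx, Idh1, Idh2, Idh3b, Idh3g, Suclg1 and Mdh1, all higher in cKO. The cause was not tested. Of the 10 members, 7 had an unadjusted p under 0.05 with each library left out in turn, and Pgam1, Ldhb and Rpe did not. The median log2 fold change of the members was 0.10 as reported, 0.04 under TPM scaling, 0.05 under TPM scaling without milk genes, and 0.06 (without control replicate 1 or 2) to 0.14 (without control replicate 3) with 1 library left out, beside a spread within groups of 0.15. For 13 named genes under 18 alternatives no direction changed; Me1 and Bnip3 had an adjusted p above 0.05 in 14 of their values, most with 1 library left out. The replicate numbers do not pair the libraries: deviations of same-numbered libraries had a correlation over genes of 0.0797 at the lowest and 0.111 on average, beside 0.13 for other numbers in the same set and -0.12 across the sets, so the values with the replicate block stand here only.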
